A study of Mus musculus with 16 samples.

Results

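The mitochondrial DNA of the mouse carries 37 annotated genes, and all 37 were found among the 51912 genes of the count table by a symbol that starts with mt-. They are 2 ribosomal RNA (rRNA) genes, 13 protein-coding genes and 22 transfer RNA (tRNA) genes. Their counts were followed across 16 libraries of nuclear RNA from the mouse colon, in 4 groups of 4. All mice were C57BL/6 kept free of specific pathogens. All had received the vector AAV9-CaMKII-EGFPKASH into a vein 5 weeks before nuclei were isolated, which puts EGFP on the nuclear envelope of cells in which the CaMKII promoter is active. The smooth muscle layer with its myenteric plexus, the nerve net of the gut wall, was peeled off and homogenised, and single intact nuclei were gated on DAPI. EGFP+ nuclei are called neuronal and EGFP- nuclei non-neuronal. Of each kind, 4 libraries came from mice injected into the abdomen with 3-methylcholanthrene, an agonist of the aryl hydrocarbon receptor (AhR), and 4 from mice given corn oil, both 14 hours before isolation. The labels give neither the dose nor the age, and they do not say which animals or pools the libraries came from, so the p-values measure only the spread between these samples, which may be technical.

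Mitochondria keep a small circular genome of their own. Both of its strands are transcribed as long precursors that are cut into rRNAs, mRNAs and tRNAs, mostly at the tRNAs that lie between the other genes. The rRNAs build the mitochondrial ribosome, the tRNAs serve it, and the mRNAs encode core subunits of respiratory complexes I, III and IV and of ATP synthase (complex V), whose other subunits come from nuclear genes. Transcripts of this genome are made and used inside mitochondria, outside the nucleus. Pieces of mitochondrial DNA have also been inserted into nuclear chromosomes during evolution, and such copies can share reads with the mitochondrial genes.

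An insertion on chromosome 1 bears on several values below, because 6 of the 13 protein-coding genes could share reads with annotated genes in it that held counts. The first bases of the gene for cytochrome c oxidase subunit 3 and of its nuclear copy are shown because no read of this stretch can tell them apart. Sequences and positions are those of the GENCODE M21 transcripts (GRCm38).
mt-Co3 (chrM:8607-8726, plus strand): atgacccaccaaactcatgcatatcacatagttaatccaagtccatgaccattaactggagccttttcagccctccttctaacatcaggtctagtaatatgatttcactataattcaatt
Gm28437 (chr1:24613852-24613971, minus strand): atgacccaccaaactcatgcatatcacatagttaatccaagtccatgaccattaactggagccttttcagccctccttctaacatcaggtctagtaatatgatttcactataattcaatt
The compared run of 783 bases held no difference. Between mt-Nd3 and Gm28438 1 difference was found over 345 bases, T3C, counted from 1 at the first base of the gene with the mitochondrial base first. It stands in capitals in the first bases of both.
mt-Nd3 (chrM:9459-9518, plus strand): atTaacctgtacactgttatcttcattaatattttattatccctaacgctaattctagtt
Gm28438 (chr1:24613060-24613119, minus strand): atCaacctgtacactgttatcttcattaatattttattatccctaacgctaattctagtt
No difference was found over the 681 bases of Gm28661 and mt-Co2, the 678 bases of Gm10925 and mt-Atp6 or the 294 bases of Gm10222 and mt-Nd4l. Gm29216 covers 492 bases and shared 405 of its 418 possible 75-base reads with mt-Co1. Gm28439 shared all 802 of its own with mt-Nd4 but was at 0 in all 16 libraries. Shorter matches of mt-Nd2, mt-Co1, mt-Co2 and mt-Nd5 to pseudogenes on chromosomes 2, 4 and 13 carried between 35 and 461 counts each over all libraries, and these were not summed.

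Neighbouring members overlap as well. The last 43 bases of mt-Atp8 are also the first 43 of mt-Atp6, and they are shown with the first codon of mt-Atp6 in capitals because reads here belong to both genes of ATP synthase.
overlap of mt-Atp8 and mt-Atp6 (chrM:7927-7969, plus strand): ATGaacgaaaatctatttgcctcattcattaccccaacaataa
By contrast, mt-Rnr1, mt-Rnr2, mt-Nd1, mt-Nd6, mt-Cytb and mt-Atp8 shared no 75-base stretch with any annotated transcript outside the mitochondrial genome.

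The libraries held between 2663738 and 4902303 counts. Their labels were checked on markers. The summed level of 15 pan-neuronal genes ranged from 4859 to 5599 counts per 1000000 counts (CPM), taken over the counts outside the mitochondrial genome (CPM outside mitochondria), in neuronal and from 139 to 726 in non-neuronal libraries. Summed smooth muscle markers (10 genes) ranged from 280 to 1443 and from 3517 to 19507. Cyp1a1, the classic AhR target gene, was at 0 in the 4 neuronal corn oil libraries and in 3 of the 4 non-neuronal ones, and ranged from 2.30 to 10.3 and from 8.001 to 189 CPM outside mitochondria with the agonist. In such bulk libraries, fewer cells of a type and less RNA per cell cannot be told apart.

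Mitochondrially encoded genes took a far larger share of the counts in non-neuronal than in neuronal libraries. In neuronal corn oil libraries 1 to 4 the share was 1.95, 2.56, 6.11 and 2.84% of all counts, and in the non-neuronal ones it was 11.2, 14.3, 26.3 and 16.1%. With the agonist it was 1.77, 5.28, 2.52 and 2.81% in neuronal and 42.8, 33.3, 21.8 and 10.3% in non-neuronal libraries. Every neuronal library was below every non-neuronal one, while agonist and corn oil libraries overlapped in both populations. The group means were 3.37% ± 1.87 (SD, n = 4) and 3.10% ± 1.52 in neuronal nuclei, and 17.0% ± 6.56 and 27.05% ± 14.1 in non-neuronal nuclei, corn oil first. The spread within a group was wide. In percentage points it was widest in non-neuronal agonist libraries, where library 4 lay at 10.3% and library 1 at 42.8%. Counting error is small against this, since the widest 95% Wilson interval of a library's share reached 0.049 percentage points to either side.

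**Figure D1:**
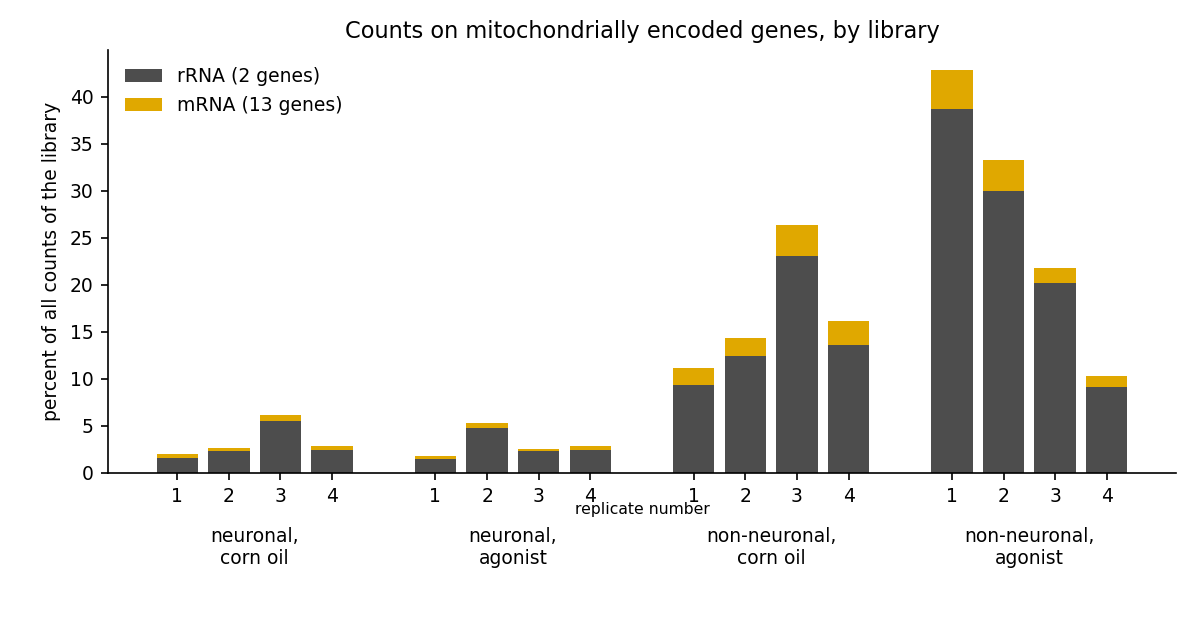
Percent of all counts on mitochondrial rRNA genes (grey) and protein-coding genes (yellow) in each of the 16 libraries, stacked, with replicate numbers under the bars. The 8 neuronal bars end between 1.77% and 6.11% and the 8 non-neuronal bars between 10.3% and 42.8%.

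The rRNAs made up most of these counts in every library, between 78.0% and 92.7% of all mitochondrial counts. As a share of all counts, the rRNAs reached 1.52, 2.25, 5.43 and 2.42% in neuronal corn oil libraries and 9.34, 12.4, 23.1 and 13.5% in non-neuronal ones. The 13 mRNAs together took 0.430, 0.306, 0.680 and 0.423% and 1.83, 1.85, 3.23 and 2.61%. With the agonist the mRNAs took 0.292, 0.538, 0.278 and 0.373% in neuronal and 4.15, 3.29, 1.60 and 1.20% in non-neuronal libraries, so the populations were apart for both classes. In 6 of the 8 non-neuronal libraries mt-Rnr2 was the gene with the most counts of all, and in none of the neuronal ones. CT010467.1 had the most counts in neuronal agonist library 1 and non-neuronal agonist library 4. Both had the lowest mitochondrial share of their group, and a link was not tested. Gm10800 led in non-neuronal corn oil library 2, and Malat1 in the other neuronal libraries.

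Markers of another cell type were set beside the share, and they went with it only in part. In each of the 4 groups, the library with the highest mitochondrial share also had the highest summed level of 8 epithelial markers (Muc2, Epcam, Cdh1, Krt8, Krt20, Vil1, Car1 and Lgals4), a cell type that lines the gut lumen. The epithelial sum was 29.4, 80.5, 135 and 39.1 CPM outside mitochondria in neuronal corn oil libraries 1 to 4 and 12.9, 52.4, 6.12 and 28.2 with the agonist. It was 7478, 6287, 15366 and 1942 in non-neuronal corn oil and 5278, 3045, 1199 and 4048 in non-neuronal agonist libraries. The order of the other libraries differed, and the lowest library was the same for both measures in 1 of the 4 groups. Sums of the other non-neuronal markers were not ranked against the share, so the match cannot be called particular to epithelium. In non-neuronal nuclei the mean epithelial sum was 7768 under corn oil and 3392 with the agonist, while the mean mitochondrial share was higher with the agonist. At most 6 of the 8 markers were at 0 in a neuronal agonist library, at most 1 in a neuronal corn oil library and none in non-neuronal libraries. Muc2, the gel-forming mucin of goblet cells, reached 14153 CPM outside mitochondria in non-neuronal corn oil library 3. The part of epithelial RNA in the mitochondrial share was not tested. Transcripts of cytosolic ribosomal proteins, which serve here as a sign of RNA from outside the nucleus, differed between the populations as well. Their sum over 84 genes ranged from 1123 to 2149 CPM outside mitochondria in neuronal and from 2806 to 5521 in non-neuronal libraries, and their part in the result was not tested either.

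The authors' counting placed reads on a member or on its nuclear copy in a way that changed from library to library. mt-Co3 encodes a core subunit of complex IV. Alone it was listed at 0, 0, 8 and 0 counts in neuronal corn oil libraries 1 to 4, while its copy Gm28437 held 490, 543, 989 and 460. In neuronal agonist libraries mt-Co3 had 424, 1, 0 and 0 counts and the copy 0, 1014, 394 and 528. In non-neuronal corn oil libraries mt-Co3 had 1, 111, 2449 and 1 counts and Gm28437 had 2781, 2350, 3256 and 4880. Non-neuronal agonist libraries gave 5343, 4707, 1277 and 742 for mt-Co3 and 14247, 1883, 3294 and 2312 for the copy. The pair thus switched almost completely between its names within a group: the copy held 0% of the pair's counts in neuronal agonist library 1 and at least 99.9% in the other 3 libraries of that group. Over the 16 libraries the copy held more than 50% of the counts in 14 for mt-Co3, in 12 for mt-Atp6, in 6 for mt-Nd3, in 3 for mt-Nd4l, in 1 for mt-Co2 and in 0 for mt-Co1.

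**Figure D2:**
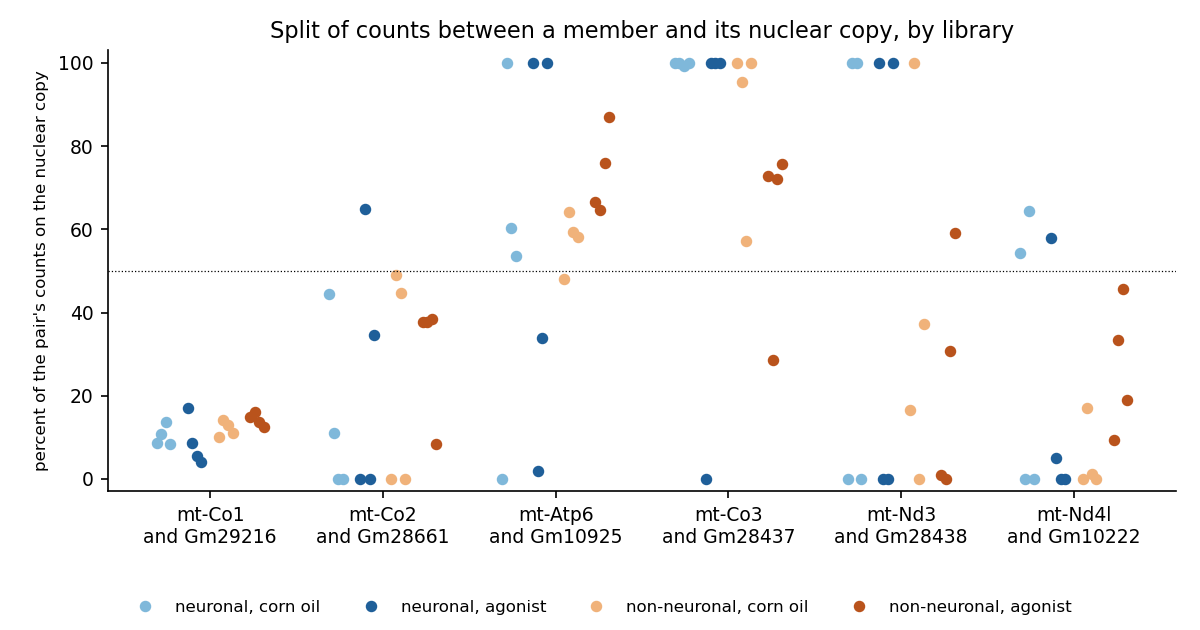
Percent of the counts of a member and its nuclear copy that were placed on the copy, for 6 pairs, with each point a library and colours for the 4 groups; the dotted line marks 50%. For mt-Co1 the points lie between 4.03% and 17.0%, while for mt-Co3, mt-Atp6 and mt-Nd3 they reach from 0% to 100%.

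For mt-Atp6, a membrane subunit of ATP synthase, the member alone was at 145, 0, 117 and 63.6 CPM over all counts of the library in neuronal corn oil and at 0, 215, 47.4 and 0 CPM in neuronal agonist libraries. Its copy Gm10925 was at 0, 124, 178 and 73.4 and 79.4, 4.12, 24.2 and 133 CPM. A library at 0 for one name was thus well above 0 for the other. Alone, mt-Nd3 was at 31.9, 0, 0 and 12.98 CPM in neuronal corn oil and 0, 18.5, 8.17 and 0 in neuronal agonist libraries, against 72.4, 0, 77.7 and 57.3 and 84.5, 123, 31.1 and 20.4 in non-neuronal ones. Both genes were therefore also tested as the sum of the member and its copy, an analysis chosen after the data were seen. As sums, all 7 pairs were apart between the populations under both treatments, with every neuronal library below every non-neuronal one. For mt-Nd4 the sum equals the member alone, since Gm28439 held 0 counts.

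Both rRNAs were several-fold lower in neuronal nuclei. mt-Rnr1, the 12S rRNA of the small ribosomal subunit, made up 0.457, 0.693, 1.68 and 0.685% of counts in neuronal corn oil libraries and 3.24, 3.88, 8.08 and 4.59% in non-neuronal ones. Its level was 7.07-fold lower in neuronal nuclei, a log2 fold change of -2.82 (SE 0.45) with an adjusted p of 0.000515 (edgeR's quasi-likelihood test with Benjamini-Hochberg adjustment over all genes, used throughout). Fold changes here and below were fitted after TMM scaling, which adjusts each library by a further factor. They therefore differ from ratios of the printed shares and CPM, which are scaled by library size alone. With the agonist, the members' median log2 fold change was -3.43 after TMM and -2.56 by library size alone. With the agonist it made up 0.574, 1.44, 0.628 and 0.752% and 14.3, 9.63, 6.65 and 2.90%, and the log2 fold change was -4.18 (SE 0.59), adjusted p = 0.000603 by edgeR. mt-Rnr2, the 16S rRNA of the large subunit, made up 1.07, 1.56, 3.75 and 1.74% in neuronal and 6.10, 8.56, 15.01 and 8.94% in non-neuronal corn oil libraries, 5.96-fold lower (adjusted p = 0.000643, edgeR). With the agonist the shares were 0.908, 3.30, 1.61 and 1.68% and 24.3, 20.4, 13.6 and 6.17%, a log2 fold change of -3.97 (SE 0.56) (adjusted p = 0.000502, edgeR). Neither rRNA overlapped between the populations under either treatment. The highest neuronal value of both rRNAs came from the same 2 libraries, corn oil 3 and agonist 2.

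Of the 14 members that passed the count filter in the corn oil comparison, 12 were lower in neuronal nuclei and none was higher, against 13.5% of all genes tested that were called lower, 11.8% called higher and 25.4% called in either direction. In the comparison of populations with the agonist 13 of 15 tested members were lower, against 6.97% of all genes tested called lower, 6.67% called higher and 13.6% in either direction. Unadjusted p were under 0.05 for 35.8% and 25.9% of all genes in these comparisons. A member with few neuronal counts could pass the filter through its non-neuronal counts alone, and the 22 tRNA genes were too sparse to pass. The median log2 fold change of the tested members was -2.60 under corn oil, with -0.11 over all genes tested, and -3.43 with the agonist, with -0.15 over all genes. Scaled by library size alone, the medians of all genes became 0.14 and 0.45, and those of the members -2.29 and -2.56. The 2 members not called under corn oil were mt-Atp6 and mt-Nd3, and the 2 with the agonist were mt-Atp6 and mt-Co3, by edgeR. DESeq2 called 12 of 14 and 14 of 15, and with the agonist it called mt-Co3 (adjusted p = 0.0255). Over all genes DESeq2 called 6692 and 4358 in either direction, where edgeR called 3876 and 1918. The share that DESeq2 called lower over all genes is not given here. mt-Co3 alone did not pass the filter under corn oil. When the members that have a copy were summed with it, 15 of 15 members were lower in both comparisons, with backgrounds of 13.5% and 7.02%. By CPM, 13 of 15 members did not overlap between the populations under corn oil and 14 of 15 with the agonist, all lower in neuronal nuclei, against 11.8% and 6.49% of all genes tested. In the other direction 20.1% and 16.7% of all genes did not overlap.

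The 7 mt-Nd genes encode subunits of complex I, which takes electrons from NADH. In neuronal corn oil libraries mt-Nd1 was at 492, 269, 578 and 401 CPM, and in the non-neuronal ones at 1604, 1753, 2494 and 2278. With the agonist mt-Nd1 was at 179.5, 408, 229.9 and 282 and 2980.2, 2490.3, 1387 and 1015 CPM. It was 5.79-fold lower in neuronal nuclei under corn oil (log2 fold change -2.53 (SE 0.29), adjusted p = 4.67e-05) and 12.96-fold lower with the agonist (adjusted p = 0.000230), by edgeR. This gene has no nuclear copy in the annotation that could share its reads, and no library of one population reached the other. Levels of mt-Nd2 were 291, 61.1, 216 and 153 CPM in neuronal and 954, 784, 1015 and 919 in non-neuronal corn oil libraries. Agonist libraries held 221, 89.00, 128 and 225 and 1000.1, 1369, 473 and 498 CPM of mt-Nd2, and its fold changes were 6.27 and 8.75, both lower in neuronal nuclei. For mt-Nd4 the corn oil levels were 469.8, 341, 638 and 572 against 1755, 2284, 2982 and 2755 CPM and the agonist levels 439, 309.7, 284 and 450.2 against 3149, 2339.7, 1365 and 1294 CPM, neuronal first. The largest mRNA of the genome, mt-Nd5, was at 706, 223, 592 and 572 against 2256, 2304, 2679.9 and 3136 CPM under corn oil. Its agonist levels were 622, 422, 298 and 570.1 against 3684, 4099, 2049 and 1465 CPM. mt-Nd4 was 5.997-fold and mt-Nd5 6.10-fold lower in neuronal nuclei under corn oil, with adjusted p of 3.44e-05 and 6.33e-05 (edgeR), and 9.59-fold and 10.2-fold lower with the agonist.

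The one protein-coding member on the minus strand, mt-Nd6, was at 70.1, 12.5, 49.98 and 44.1 CPM in neuronal and 198, 231, 239 and 246 CPM in non-neuronal corn oil libraries. In agonist libraries it was at 76.7, 30.6, 33.6 and 63.03 and 207, 347, 207 and 119.6 CPM. It was 6.38-fold lower in neuronal nuclei under corn oil (adjusted p = 0.000433, edgeR) and 7.16-fold lower with the agonist (adjusted p = 0.00360, edgeR). Since the strand setting of the counting is not given in the sources used here, reads of mt-Nd6 and of precursors of the opposite strand cannot be told apart, and 14 bases of mt-Nd6 also belong to mt-Nd5. The short complex I genes mt-Nd3 and mt-Nd4l share reads with their copies. mt-Nd4l alone was at 23.5, 61.7, 33.2 and 44.8 against 292.5, 272, 454 and 479.6 CPM under corn oil and 18.3, 54.02, 23.6 and 50.9 against 912, 286, 141 and 131 CPM with the agonist. Its log2 fold change of -3.50 (SE 0.37) under corn oil became -2.93 (SE 0.33) when Gm10222 was added, and both passed the test, with adjusted p of 3.14e-05 and 4.30e-05 by edgeR. With the agonist its log2 fold change alone was -4.30, and -3.05 without non-neuronal agonist library 1. Summed with Gm28438, mt-Nd3 was at 31.9, 12.5, 26.4 and 12.98 CPM in neuronal and 86.7, 75.5, 77.7 and 91.4 in non-neuronal corn oil libraries. The sum was at 9.02, 18.5, 8.17 and 15.6 and 85.3, 123, 44.8 and 49.9 CPM with the agonist. mt-Nd3 alone missed the threshold under corn oil (adjusted p = 0.200) and was close to it with the agonist (0.0487), while the sum had an adjusted p of 0.000906 and 0.00495, all by edgeR. Leaving out any of 5 libraries, neuronal agonist 1, 3 or 4 or non-neuronal agonist 1 or 2, took the adjusted p of mt-Nd3 alone above the threshold with the agonist, with adjusted p between 0.0689 and 0.121 (edgeR). Without neuronal agonist library 2 its log2 fold change went from -4.20 to -5.50.

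Complex III, which passes electrons from ubiquinol to cytochrome c, has a single member, mt-Cytb (cytochrome b). It was at 525, 470.0, 790.4 and 520.4 CPM in neuronal and 1775, 2319, 3543 and 2781 CPM in non-neuronal corn oil libraries. With the agonist it was at 467, 612, 318 and 419 and 4552, 2863, 1523 and 1275 CPM. The gene has no nuclear copy in the annotation, did not overlap between populations, and was 5.64-fold (adjusted p = 6.87e-05) and 10.1-fold lower (adjusted p = 0.000768) in neuronal nuclei, by edgeR. Without non-neuronal agonist library 1 its log2 fold change with the agonist went from -3.34 to -2.70.

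Complex IV, cytochrome c oxidase, takes its catalytic core from mt-Co1, mt-Co2 and mt-Co3. mt-Co1 had the most counts of the mRNAs in all but neuronal agonist library 1, with 1399, 1507, 3406 and 1622 CPM in neuronal and 7992, 7646, 16830 and 11864 CPM in non-neuronal corn oil libraries. In agonist libraries it was at 617, 3124, 1276 and 1526 and 21876, 16623, 8132 and 5462 CPM. It was 6.995-fold lower in neuronal nuclei under corn oil (adjusted p = 0.000186, edgeR) and 14.9-fold lower with the agonist (adjusted p = 0.00190, edgeR). mt-Co2 alone was at 123, 101, 333 and 193 against 855, 515, 736 and 1029.5 CPM under corn oil and at 152, 66.6, 108 and 116 against 1098, 489, 235 and 421 CPM with the agonist. Its fold changes of 5.01 and 8.95, both lower in neuronal nuclei, became 6.08 and 9.99 when Gm28661 was added. Without non-neuronal agonist library 1 the log2 fold change of mt-Co2 alone with the agonist went from -3.16 to -2.32, still called by edgeR. For mt-Co3 only the sum with Gm28437 gives steady values. The sum was at 164, 165, 283 and 149 CPM in neuronal and 883, 924, 1293 and 1260.0 in non-neuronal corn oil libraries. With the agonist it was at 95.6, 261, 124 and 183 and 3996, 1851, 966 and 726 CPM. As a sum, mt-Co3 was 7.03-fold lower in neuronal nuclei under corn oil (adjusted p = 2.67e-05, edgeR) and 21.7-fold lower with the agonist (adjusted p = 0.000569, edgeR). The agonist fold is after TMM scaling and is larger than the ratio of the mean CPM, 166 in neuronal and 1885 in non-neuronal libraries. Alone, with the agonist, mt-Co3 had an adjusted p of 0.238, and of 0.000552 without neuronal agonist library 1, the library in which the pair's counts carried its name.

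ATP synthase has the members mt-Atp8 and mt-Atp6, which lie next to each other and overlap. mt-Atp8 was at 25.5, 16.7, 45.2 and 27.9 CPM in neuronal and 147, 129.9, 205 and 166 in non-neuronal corn oil libraries. With the agonist it was at 27.5, 26.8, 19.5 and 23.9 and 289, 167, 49.1 and 62.8 CPM. mt-Atp8 was 6.92-fold lower in neuronal nuclei under corn oil (adjusted p = 0.000151, edgeR) and 10.8-fold lower with the agonist (adjusted p = 0.00471, edgeR). Without non-neuronal agonist library 1 the log2 fold change of mt-Atp8 with the agonist went from -3.43 to -2.60. The sum of mt-Atp6 and Gm10925 was at 145, 124, 294 and 137 against 680.2, 659, 1224 and 917 CPM under corn oil. With the agonist the sum was at 79.4, 219, 71.6 and 133 against 1743, 1058, 408 and 319 CPM. Alone, mt-Atp6 did not pass the test (adjusted p = 0.0681 and 0.438, edgeR), while the sum was 6.18-fold and 13.3-fold lower in neuronal nuclei (adjusted p = 0.000179 and 0.00170, edgeR). Non-neuronal levels of mt-Atp6 alone in the same libraries were 353, 237, 497 and 383 CPM under corn oil and 581, 374, 98.3 and 41.1 CPM with the agonist.

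**Figure D3:**
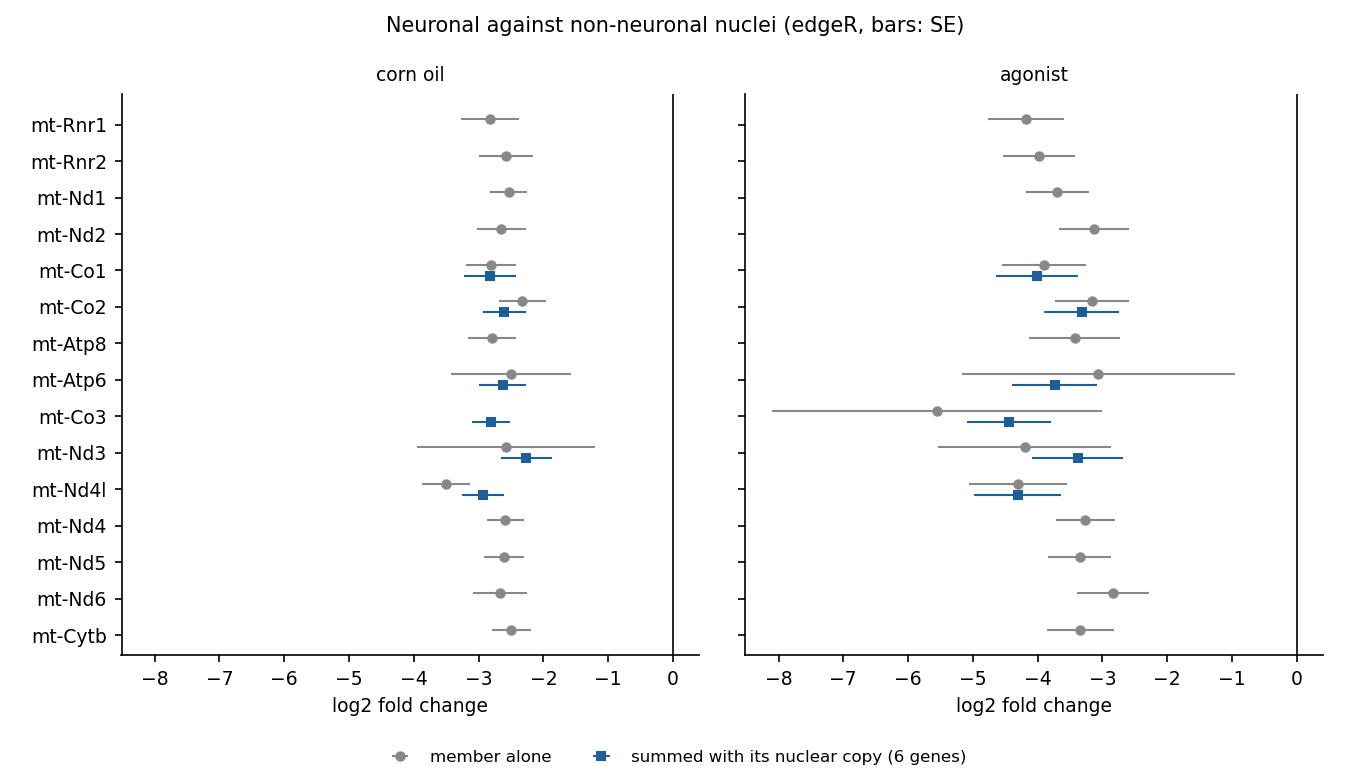
Log2 fold change of neuronal against non-neuronal nuclei for the rRNA and protein-coding members, with bars for the SE, under corn oil (left) and with the agonist (right); grey circles are the members alone and blue squares 6 members summed with their nuclear copies. All points lie below 0, and the widest bars belong to mt-Atp6, mt-Co3 and mt-Nd3 alone.

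To compare genes with each other, levels were divided by gene length (CPM per kilobase), with members and copies summed where a member has a copy. The order was led by the rRNAs in all 4 groups: mt-Rnr2 at 61001 ± 23927 and mt-Rnr1 at 51819 ± 22621 CPM per kilobase in non-neuronal corn oil libraries (SD, n = 4). These 2 overlapped with each other and with no mRNA. The third was mt-Co1 at 8169 ± 3206, above all other mRNAs in every library of that group, and mt-Cytb followed at 2277 ± 654. At the lower end stood mt-Nd6 at 440 ± 40.7 and mt-Nd3 at 238 ± 21.5, each apart from its neighbour in that order, while the genes between mt-Cytb and mt-Atp8 overlapped with their neighbours. Neuronal corn oil libraries gave a like order at lower levels, from 12826 ± 7472 for mt-Rnr2 and 1445 ± 741 for mt-Co1 to 60.1 ± 28.0 for mt-Nd3. With the agonist the first 3 genes and the last 2 were the same in both populations.

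**Figure D4:**
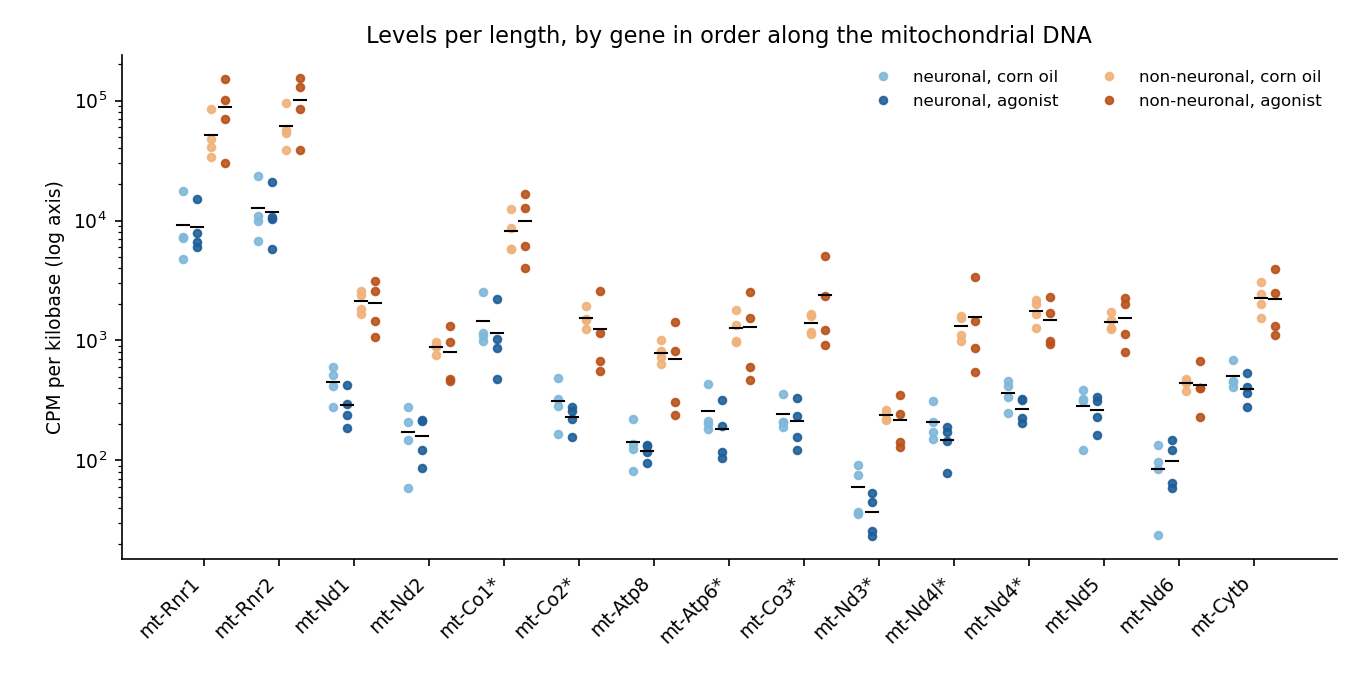
CPM per kilobase of gene length on a log axis for the 15 rRNA and protein-coding members, with each point a library, colours for the 4 groups and short lines for the group means; a star marks a member summed with its nuclear copy. The rRNAs and mt-Co1 stand highest and mt-Nd3 lowest in all groups, and neuronal points (blue) lie below non-neuronal points (orange) of the same gene and treatment.

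The tRNA genes were nearly absent from these libraries. The 22 genes had 71 counts in all, 12 of them none in any library, and mt-Tl1 alone held 45. A count of 0 over all 58763039 counts allows up to 0.0511 CPM. mt-Tl1, the longest, is the one tRNA as long as a read (75 bases), and it is shown with the shortest, mt-Ts2, which had no count, because the other 21 genes are shorter than a read.
mt-Tl1 (chrM:2676-2750, plus strand): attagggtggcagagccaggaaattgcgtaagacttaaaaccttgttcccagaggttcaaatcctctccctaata
mt-Ts2 (chrM:11613-11671, plus strand): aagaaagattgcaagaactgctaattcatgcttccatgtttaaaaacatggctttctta
Non-neuronal libraries held 11, 7, 11 and 8 tRNA counts under corn oil and 16, 6, 7 and 2 with the agonist. Neuronal libraries held 1 count under corn oil and 2 with the agonist, all in 1 library each. Besides mt-Tl1, mt-Ts1 had 12 counts, and each of the other 8 detected tRNAs had at most 4. Levels of mature tRNAs cannot be read from these counts.

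Pairs of members within a library are free of library scaling. The ratio of mt-Rnr2 to mt-Rnr1 was 2.34, 2.25, 2.23 and 2.54 in neuronal and 1.88, 2.20, 1.86 and 1.95 in non-neuronal corn oil libraries. The groups did not overlap, with means of 2.34 ± 0.140 and 1.97 ± 0.159 (SD, n = 4). The two-sided exact permutation test gave p = 0.0286, the smallest that 4 against 4 libraries allow, and 0.229 after adjustment over the 8 tests made on ratios. With the agonist the ratios were 1.58, 2.29, 2.57 and 2.24 and 1.70, 2.12, 2.04 and 2.13, which overlapped (exact permutation p = 0.514, adjusted 0.686). The ratio of mt-Nd6 to mt-Nd5, neighbours on opposite strands, was 0.0993, 0.0558, 0.0845 and 0.0772 in neuronal and 0.0878, 0.100, 0.0891 and 0.0784 in non-neuronal corn oil libraries. In agonist libraries it was 0.123, 0.0725, 0.113 and 0.111 and 0.0562, 0.0846, 0.101 and 0.0816. The groups overlapped in this ratio in each of the 4 comparisons, and the 4 adjusted p, by exact permutation tests, lay between 0.610 and 0.686. Over all mRNA counts, copies included, complex IV took 40.6, 55.3, 57.8 and 45.9% in neuronal and 52.2, 49.9, 59.6 and 53.1% in non-neuronal corn oil libraries. Complex I took 44.7, 27.6, 27.8 and 39.2% and 35.1, 35.8, 26.95 and 33.7%, so these shares overlapped between the populations. Complex III took 11.1, 13.2, 10.03 and 11.3% in neuronal and 8.71, 10.7, 9.60 and 9.47% in non-neuronal corn oil libraries, which overlapped. Its share with the agonist was 14.8, 10.1, 10.6 and 10.01% in neuronal and 9.08, 7.59, 8.21 and 9.32% in non-neuronal libraries, which did not overlap, and no test was made on these shares. With the agonist complex IV took 31.4, 63.8, 52.8 and 46.6% and 62.7, 59.5, 58.1 and 54.3% and complex I 50.4, 22.03, 33.6 and 39.6% and 24.1, 29.7, 31.2 and 33.6%, neuronal first, and both overlapped.

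The agonist was compared with corn oil within each population, on the same libraries. In neuronal nuclei 0 of 14 tested members were called by edgeR, with 0 at an unadjusted p under 0.05 and 0 called by DESeq2. Over all 14182 genes tested by edgeR 0 were called as well (0%), with 712 (5.02%) at an unadjusted p under 0.05. DESeq2, run without the count filter, called 24 genes. The member with the lowest p was mt-Nd1, at 435 ± 132 CPM under corn oil and 275 ± 98.2 CPM with the agonist (SD, n = 4), a log2 fold change of -0.57 (SE 0.27) with an adjusted p of 0.901 by edgeR. mt-Co2 followed, with -0.60 (SE 0.42) and an adjusted p of 0.910 (edgeR). Fitted differences were below 0 for 10 of the 14 and above 0 for 4, and 13 were below 0 when libraries were scaled by size alone. The median was -0.15, with 0.08 over all genes.

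In non-neuronal nuclei 0 of 15 members were called by edgeR and 0 by DESeq2. Over all 14846 genes tested by edgeR 2 were called (0.0135%), Serpina3n and Cyp1a1. DESeq2, without the count filter, called 136 genes. Unadjusted p were under 0.05 for 2 members, the rRNAs, against 4.82% of all genes. mt-Rnr1 had a log2 fold change of 1.32 (SE 0.55) and mt-Rnr2 of 1.28 (SE 0.52), each with an adjusted p of 0.954 (edgeR). The rRNA levels of the 2 treatments overlapped, and non-neuronal agonist library 4 was below all 4 corn oil libraries for mt-Rnr1. Fitted differences were above 0 for all 15 members, with a median of 0.55 against 0.13 over all genes, but 9 of the 15 were below 0 when libraries were scaled by size alone, where the medians were -0.03 and -0.27. Without non-neuronal agonist library 1, the one with the highest mitochondrial share, 9 were above 0 and 6 below, with a median of 0.18. By CPM, the treatments overlapped for every one of the 15 rRNA and protein-coding members in both populations. Over all genes tested, 2.63% were lower and 1.09% higher without overlap in neuronal nuclei, and 3.69% and 0.397% in non-neuronal nuclei.

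**Figure D5:**
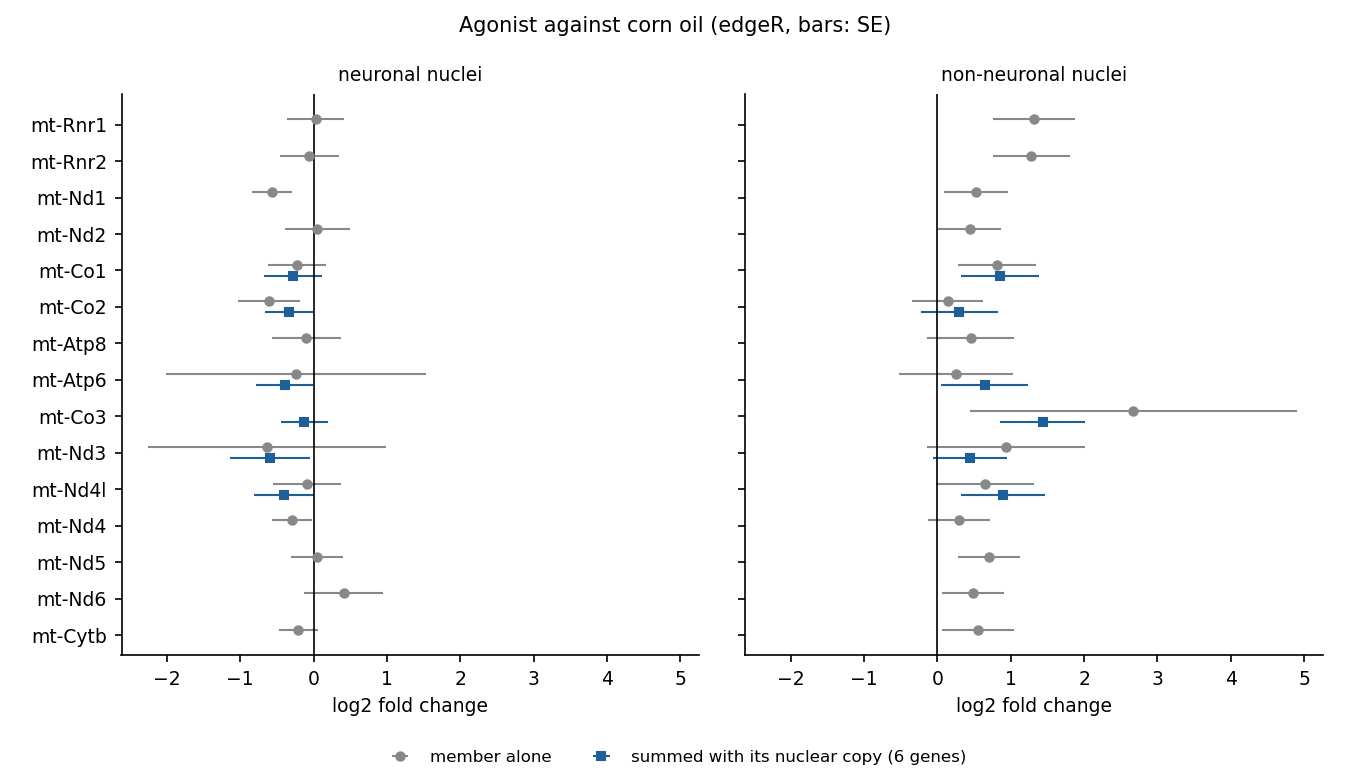
Log2 fold change of agonist against corn oil for the rRNA and protein-coding members, with bars for the SE, in neuronal (left) and non-neuronal nuclei (right); symbols are those of the plot of population differences. Neuronal points lie on both sides of 0 and non-neuronal points above 0, and none passed the test.

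The difference of the agonist response between the populations, fitted over all 16 libraries, was called for 0 of 15 members by edgeR, with 0 at an unadjusted p under 0.05 and 0 called by DESeq2. Over all 18566 genes that it tested edgeR called 0 (0%), and 1484 (7.99%) had an unadjusted p under 0.05. DESeq2, without the count filter, called 152 genes. The lowest adjusted p of a member was 0.663, for mt-Nd1, whose response in neuronal nuclei minus that in non-neuronal nuclei was -1.04 (SE 0.55) on the log2 scale by edgeR. For mt-Rnr2 the value was -1.28 (SE 0.87), adjusted p = 0.772 (edgeR). With SE between 0.53 and 3.47 over the members, differences of this size were not detectable at this spread.

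The mitochondrial genome is served by nuclear genes, and few of these were called between the populations. The list of 80 nuclear-encoded subunits of complexes I to V also holds some associated genes, such as Cycs (cytochrome c). Of these 80, 71 were tested under corn oil. A single one was lower in neuronal nuclei, Atp5b, the catalytic beta subunit of ATP synthase, at 65.3 ± 17.4 against 129 ± 70.02 CPM (SD, n = 4). By edgeR its log2 fold change was -1.23, with an SE of 0.36 and an adjusted p of 0.0230, and none was higher, with 13.5% of all genes called lower. DESeq2 called 12 lower, and 6692 of all genes in either direction. Its share of all genes called lower is not given here, so the 12 cannot be set against a like background. The median of the 71 was -0.80, with -0.11 over all genes, and 63 of the 71 lay below 0. With the agonist 3 of 67 were lower and none higher, Sdhd, Uqcr11 and Cox6a1, with 6.97% of all genes called lower. DESeq2 called 12 lower there, and 4358 of all genes in either direction, with the same limit. The median was -1.60, with -0.15 over all genes, and 63 of the 67 lay below 0. By complex, the corn oil medians were -0.65 for complex I (31 tested), -0.90 for complex II (4), -0.97 for complex III (9), -1.04 for complex IV (11) and -0.81 for complex V (16). Subunits with higher levels or lower p gave values on both sides of 0 that did not pass the test. Several were at low levels with a wide SE, such as Sdhc at 6.82 against 11.8 CPM (SE 0.67). A missing call therefore does not show equal levels. Under corn oil the log2 fold change was -2.09 for Ndufa9, 1.39 for Ndufv3, 0.15 for Ndufs1 and -0.81 for Ndufab1 of complex I. It was -1.78 for Sdhd, -1.05 for Sdhc and -0.44 for Sdha of complex II, 2.09 for Uqcrb, -1.61 for Uqcrfs1, -0.45 for Uqcrc2 and -0.97 for Uqcrc1 of complex III. Complex IV gave -1.38 for Cox7c, -1.56 for Cox5a and -0.73 for Cox6c, and complex V -0.84 for Atp5a1. In both treatments the medians of these partners were closer to that of all genes than the medians of the members, a difference that was not tested.

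Genes that copy and transcribe the mitochondrial genome were mostly not called. Of 16, among them the polymerase Polrmt and the packaging factor Tfam, 1 was lower in neuronal nuclei under corn oil, Primpol, a primase and polymerase, with a log2 fold change of -1.94 (SE 0.52, adjusted p = 0.0147, edgeR), and the list's median was -0.05. Of 23 tested genes of mitochondrial RNA processing and stability 1 was lower, Fastkd3, at 12.9 ± 4.29 against 31.4 ± 15.99 CPM (adjusted p = 0.0421, edgeR), with a median of -0.02. Lrpprc, which stabilises mitochondrial mRNAs, was at 107 ± 33.9 and 116 ± 31.3 CPM and did not pass the test (adjusted p = 0.401, edgeR). Nor did Mgme1, Ssbp1 and Mterf3 of the first list, with log2 fold changes of -2.10, 0.64 and 0.35, or Grsf1 and Pnpt1 of the second, with 1.09 and 0.69. Among 8 regulators of mitochondrial content 4 were lower in neuronal nuclei. Of all genes tested, 13.5% were called lower under corn oil, the share beside which the counts of these 3 lists stand. The 4 regulators were Ppargc1a and the transcription factors Nrf1, Gabpa and Esrrg. Ppargc1a, the coactivator that drives mitochondrial biogenesis, was at 30.6 ± 7.27 against 95.5 ± 41.4 CPM (fitted at -1.98 on the log2 scale by edgeR, SE 0.42, adjusted p = 0.00356). With the agonist Ppargc1a alone of the 7 tested was lower (adjusted p = 0.0491, edgeR), with 6.97% of all genes called lower. DESeq2, run without the count filter, called 2 regulators lower, and 4358 of all genes in either direction. Its share of all genes called lower is not given here. When agonist was compared with corn oil, none of these lists, nor the nuclear-encoded subunits, had a gene called by edgeR or DESeq2 in either population. In non-neuronal nuclei the subunits had a median of 0.71, with 0.13 over all genes, and the fitted values were 2.68 for Ndufs6, 1.15 for Sdhc, 3.31 for Uqcr11, 1.75 for Cox7b and 1.62 for Atp5c1. They were -2.05 for Primpol, 1.75 for Polg2, 1.76 for Slirp, 1.20 for Grsf1 and -0.90 for Gabpa. Of the nuclear-encoded subunits 4 of 66 in neuronal and 1 of 74 in non-neuronal nuclei had an unadjusted p under 0.05 (edgeR), as had 1 of 6 regulators in neuronal nuclei and 2 of 14 transcription and replication genes in non-neuronal nuclei. Over all genes these shares were 5.02% in neuronal and 4.82% in non-neuronal nuclei.

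The long noncoding RNAs listed as nuclear were mostly higher in neuronal nuclei, and the reason was not tested. Of 10 long noncoding RNAs 9 were higher in neuronal nuclei under corn oil and 1 was lower, with 11.8% of all genes called higher and 13.5% called lower. Malat1 was at 65901 ± 5004 CPM in neuronal and 31527 ± 10614 in non-neuronal corn oil libraries (log2 fold change 0.82, SE 0.19, adjusted p = 0.00573, edgeR). Meg3, an imprinted noncoding RNA, was higher by 4.34 (SE 0.31) on the log2 scale, with an adjusted p of 2.47e-06 by edgeR, and its neighbour Rian by 3.93. Neat1, the scaffold of paraspeckles, was the 1 that was lower, with a log2 fold change of -1.49 (SE 0.26, adjusted p = 0.000924, edgeR). With the agonist 6 of the 10 were higher and Neat1 was lower, with a log2 fold change of -2.70, and 6.67% and 6.97% of all genes were called higher and lower. Malat1 was not among those called with the agonist, with a log2 fold change of 0.58 (SE 0.25, adjusted p = 0.148, edgeR).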

How the data were processed

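RNA from sorted nuclei was sequenced as 75-base reads, and the authors deposited 1 table of expected counts per gene for 16 libraries, estimated by RSEM per the file headers. The submitters' processing notes name RSEM 1.3.0, STAR 2.5.2, DESeq2 1.10.1 and the build GRCm38. Annotation release and strandedness were not given in the sources used here. Groups were taken from the labels. Column headers name a project on another genotype comparison, which was not used. Symbols, lengths and sequences came from GENCODE M21, which gave a symbol to 51719 gene IDs and none to 193.

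For the tests, counts were rounded to integers. A comparison was fitted on its own 8 libraries, and the difference of responses on all 16, with edgeR 4.0.16 (quasi-likelihood test, TMM scaling, filterByExpr with a minimum count of 10 and a total of 15) in R 4.3.3 with limma 3.58.1. A call means p under 0.05 after Benjamini-Hochberg adjustment across every gene in the fit. Alternatives were DESeq2 1.42.0, scaling by library size, TMM outside the mitochondrial genome, no count filter, 1 fit of all groups, a replicate block and leaving out each library. Summing each member with a nuclear copy that shares at least 90% of its 75-base windows was added after seeing the data. Shares of counts carry 95% Wilson intervals, and a count of 0 allows 3 counts, between 0.612 and 1.13 CPM in a library. Intervals and floors cover counting error only. Libraries of a group differed beyond sampling noise (lowest chi-square per degree of freedom 9.67 over 24 pairs). The fits were also run on simulated counts with the same dispersion for every gene. That run checks the code and does not cover the spread of these groups.

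The members and gene lists were chosen with earlier results of these data known. Values per library are given for the rRNA and protein-coding members. From each other list the rule names the 2 tested genes with the lowest p and the 2 with the highest level, in the corn oil comparison of populations and in the agonist comparison of non-neuronal nuclei. It adds the nuclear copies, Malat1, Neat1, Meg3 and Cyp1a1. For the lists of mitochondrial function the lowest-p genes and, between populations, the highest-level genes are printed, while lists of cell types are given as sums. One gene that the rule names is not reported here. Nrf1, Esrrg, Sdhd, Uqcr11 and Cox6a1 were named because they were called.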

Additional observations from a re-analysis of the deposited data

Results flagged for a closer look

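In each group of 4 libraries, the 15 rRNA and protein-coding members and 7 shares and ratios of their counts were checked for a library far from the others, 88 checks in all, of which chance marks about 1 in 20. The 5 values found are these. mt-Co3 stood at 95.6 CPM in neuronal agonist library 1, with the next library at 0.257. It stood at 2.27 CPM in neuronal corn oil library 3, with the others at 0, and at 555 CPM in non-neuronal corn oil library 3, with the next at 41.7. mt-Co1 stood at 3406 CPM in neuronal corn oil library 3, with the next at 1622. mt-Cytb stood at 790.4 CPM in that library, with the next at 525.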

How the results depend on the processing

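No member changed sign in either population comparison under any alternative run, over 210 values under corn oil and 225 with the agonist, and between 12 and 15 members were called. Signs changed in 31 of 210 values for the agonist in neuronal nuclei, 20 of 225 in non-neuronal nuclei and 18 of 345 for the difference of responses, and no member was called there. mt-Nd3 alone with the agonist was not called with library size only (adjusted p = 0.110), TMM outside the mitochondrial genome (0.0526) or all groups in 1 fit (0.117), all by edgeR. mt-Atp6 under corn oil was called without neuronal corn oil library 2 (adjusted p = 0.00335, edgeR).

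Counts over all genes depended on the tool. Between the populations under corn oil, 3876 genes were called by edgeR (3399 to 4735 leaving out 1 library) and 6692 by DESeq2. With the agonist, 1918 were called, 3324 without the count filter, 4358 by DESeq2 and 4590 with all groups in 1 fit. For the agonist in neuronal nuclei 0 became 152 without the filter and 24 by DESeq2. In non-neuronal nuclei 2 became 0 with library size only, 88 without the filter, 136 by DESeq2, 11 with all groups in 1 fit and 0 to 2 leaving out 1 library. For the difference of responses 0 became 110 without the filter, 152 by DESeq2 and 0 to 9 leaving out 1 library, with 9 without non-neuronal agonist library 3. The causes were not tested.

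Leaving out 1 library moved the log2 ratio of mt-Rnr2 to mt-Rnr1 for the agonist between -0.2176 and 0.01566 in neuronal and between -0.01808 and 0.08942 in non-neuronal nuclei, and that of mt-Nd6 to mt-Nd5 in non-neuronal nuclei between -0.2796 and 0.0019, so these directions turned. The difference in mitochondrial share, in percentage points, ranged from -15.6 to -10.5 and from -29.5 to -18.7 between the populations, and from -1.001 to 0.643 and from 4.81 to 15.7 for the agonist.

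The labels do not say whether replicate numbers pair the libraries. Correlations of same-numbered libraries lay between -0.139 and 0.245, which cannot decide this. The mitochondrial share ranked the replicate numbers alike in both populations under corn oil, and differently with the agonist. With a replicate block 12 and 13 members were called between the populations and 0 in the other 3 comparisons, as without it, and 2, 1, 1 and 2 of 4 libraries in the 4 comparisons correlated best with their own number.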
